A study of Mus musculus with 12 samples.

Results

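The regions described here are 637 short clusters of PAR-CLIP reads that lay in introns of protein-coding genes shorter than 200 kb in mouse neural stem cells. They were chosen by position and sequence, with 7 genes left out by name. The sequence of each had to be listed 1 time in the deposited cluster list, and its midpoint had to lie in no annotated exon on either strand and inside a protein-coding gene on either strand. Where genes overlapped, the longest was taken as the host. The 637 clusters made up 13.4% of the 4762 in the list and lay in 597 of the 18576 protein-coding genes under 200 kb that have intronic sequence of their own, or 3.21% of them. The genes Cdk8, Jarid2, Filip1l, Cmss1, Arhgap21, Sspn and Phkb were left out. Of these 7 genes, those under 200 kb held 9 such clusters with 65086 reads, more than all 637 together, so the read totals and highest counts below hold without them.

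The study made 12 PAR-CLIP libraries in 3 groups of 4. All came from female C57BL/6 neural stem cell lines derived from E14.5 embryos, and per the labels' protocols all cells had 100 µM 4-thiouridine for 24 h. The first group was Smchd1GFP/GFP, homozygous for a GFP-tagged Smchd1, and received 0.15 J/cm2 of light at 365 nm. The second group was also Smchd1GFP/GFP and was not crosslinked according to its titles and the design text, although its treatment protocol names the same irradiation. The third group was Smchd1+/+, which has no tag, and was crosslinked. The labels do not say whether the 4 samples of a group were separate lines or repeats of 1 line.

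The design sets the tagged, crosslinked cells against the untagged cells and against the cells without crosslinking. The deposited list gives 1 read count per cluster and no column per library, so neither comparison could be made for these clusters. Which libraries the counts came from, their depth and the caller's thresholds are stated neither in the labels nor in the file. No value below therefore has a replicate error or a background from control cells, and every interval and test covers counting error only.

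Smchd1 is a chromatin protein that takes part in silencing the inactive X chromosome, some imprinted genes and clustered gene families. PAR-CLIP feeds cells a uridine analogue, crosslinks labelled RNA to proteins with long-wave ultraviolet light and sequences what is pulled down with 1 of them. Introns are transcribed on the strand of their gene and are removed as the RNA is spliced, so a fragment of unspliced RNA carries the sequence of the gene's own strand.

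Of the 637 clusters, 596 shared no 30-base word with any other cluster, although 31 of these shared one with a transcript of another gene. The 8 with the most reads among the 596 are shown first, with counts well above the median of 13. Ncoa6, also at 40 reads, tied with the last of them and is not shown. Each is written 5′ to 3′ on its own strand, with positions on mm10 (GRCm38). Capitals mark an AC at the first 2 bases. In Pik3r1, the 1 sequence of the 8 that does not begin with AC, capitals mark the 33 bases that lie in an exon.
Naa15, chr3:51458897-51458980, plus strand: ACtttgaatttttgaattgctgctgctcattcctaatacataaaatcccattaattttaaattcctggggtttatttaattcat
Cdh22, chr2:165124529-165124613, minus strand: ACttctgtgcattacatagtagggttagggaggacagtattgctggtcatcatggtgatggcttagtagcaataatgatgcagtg
Zc3h14, chr12:98755711-98755795, plus strand: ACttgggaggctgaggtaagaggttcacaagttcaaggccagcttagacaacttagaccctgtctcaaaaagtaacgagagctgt
Lamc1, chr1:153231845-153231930, plus strand: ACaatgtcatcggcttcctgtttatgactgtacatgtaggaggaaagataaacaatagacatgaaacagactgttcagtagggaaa
Lifr, chr15:7125046-7125130, minus strand: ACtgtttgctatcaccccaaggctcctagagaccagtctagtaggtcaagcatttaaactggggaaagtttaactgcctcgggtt
Rpa2, chr4:132775935-132776020, plus strand: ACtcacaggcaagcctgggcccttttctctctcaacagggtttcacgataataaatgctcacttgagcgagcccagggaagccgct
Pik3r1, chr13:101688726-101688811, minus strand: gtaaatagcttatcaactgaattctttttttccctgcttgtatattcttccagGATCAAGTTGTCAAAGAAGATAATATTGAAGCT
Ankmy2, chr12:36176018-36176102, minus strand: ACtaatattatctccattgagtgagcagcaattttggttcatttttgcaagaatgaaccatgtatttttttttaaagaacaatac

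The highest of these, 65 reads, lay in intron 13 of Naa15, a subunit of an N-terminal acetyltransferase. The cluster in intron 8 of Cdh22, a cadherin, had 58 reads. The one in intron 3 of Zc3h14, which encodes a zinc finger protein that binds poly(A), had 57. Those 3 lay on the strand of their gene. The clusters in Lamc1, a laminin chain (49 reads, intron 20), in Lifr, the receptor of leukaemia inhibitory factor (45 reads, intron 1), and in Ankmy2 (40 reads, intron 3) lay on the opposite strand. Rpa2, a subunit of the single-stranded DNA binding complex RPA, had 42 reads in intron 6, and Pik3r1, the regulatory subunit of PI3-kinase, had 41 in intron 10, both on the strand of the gene. Both strands of genes are thus represented among the highest counts. Introns are numbered along the transcript with the largest span.

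Most clusters were shallow. A cluster had a median of 13 reads, with quartiles of 9 and 17 and a range of 5 to 1982, and 532 of the 637 (83.5%) had at most 20. The 637 held 15405 reads, or 2.78% of the 553902 in the list. The 596 clusters that shared no 30-base word with another cluster had 5 to 65 reads and 8401 in all. The other 41 shared such a word and held 7004 reads, 45.5% of the total, with a median of 21. Since 65 was the highest count of the 596, the 12 clusters with more reads were among these 41 by construction. A cluster had a length of 81 to 177 bases with a median of 85, and 615 (96.5%) were 83 to 86 bases long.

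**Figure D1:**
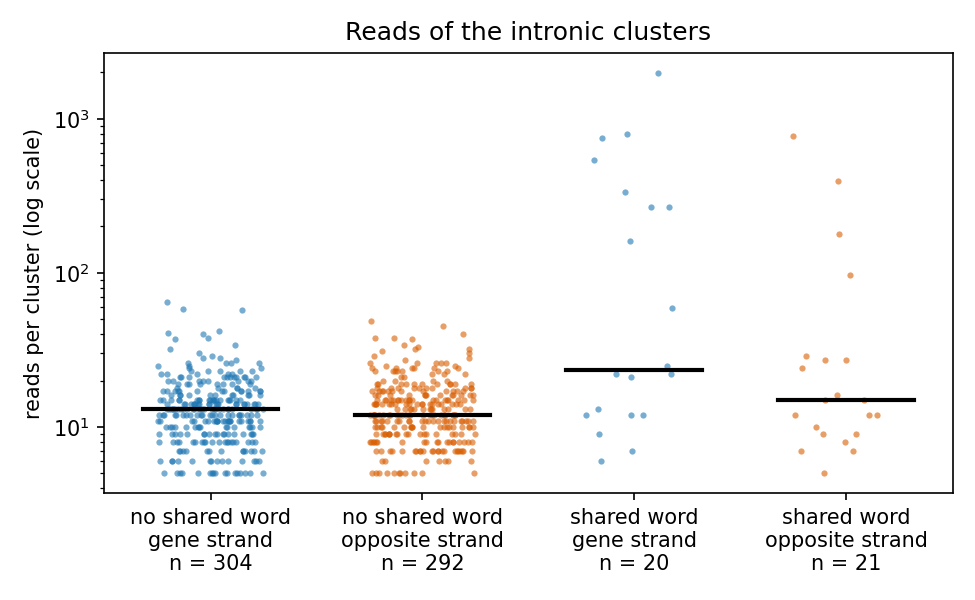
Reads of each of the 637 intronic clusters on a log axis, split by whether a 30-base word is shared with another cluster and by strand, with the median as a line and points spread sideways for visibility. The 596 clusters without a shared word end at 65 reads, while the 41 with one reach 1982.

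The highest counts thus came from a small number of loci whose sequence was not unique in the list. Here a gene name gives the place to which reads were assigned, not their source. Kpna1, which encodes an importin alpha, held 1982 reads in 1 cluster. Tmem56 held clusters of 793 and 395 reads and Il31ra, an interleukin receptor chain, held 769 and 268. Zc3h7a, a zinc finger protein gene, held 754, 538 and 97 within intron 19. Mphosph8 held 267, and Vwa3a held 162. In Tmem56, Il31ra and Zc3h7a clusters of both strands overlapped one another. Of the 15 clusters with the most reads, 13 shared a word with another cluster. The exceptions were Naa15 and Cdh22, and the 13 included a cluster in Asah1, the gene of acid ceramidase, with 59 reads.

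The shared stretches are shown for 3 of these loci, because an exact match over the whole cluster was the only test of copy number in the choice of clusters. Capitals mark bases in a 30-base word that occurs in another cluster.
Kpna1, chr16:35981673-35981772, plus strand: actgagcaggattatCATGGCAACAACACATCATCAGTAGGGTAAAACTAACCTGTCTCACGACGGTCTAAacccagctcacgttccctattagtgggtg
Mphosph8, chr14:56693997-56694082, plus strand: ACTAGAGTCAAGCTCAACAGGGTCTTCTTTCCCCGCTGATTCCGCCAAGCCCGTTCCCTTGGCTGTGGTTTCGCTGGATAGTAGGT
Vwa3a, chr7:120754000-120754083, plus strand: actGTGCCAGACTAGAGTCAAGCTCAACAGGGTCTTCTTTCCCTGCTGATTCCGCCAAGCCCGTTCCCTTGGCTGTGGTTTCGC

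All 86 bases of the Mphosph8 cluster lay in shared words, 81 of 84 in Vwa3a and 56 of 100 in Kpna1. Mphosph8, Vwa3a, Tmem56, Il31ra and Rsph3b belonged to 1 set of 25 linked clusters with 11910 reads on 10 chromosomes, of which 7 are among the 637 and 10 lay between genes. The Kpna1 cluster was linked to 1 other cluster, in an exon, and 48 of its 100 bases lay in an exon of Gm15564, an antisense transcript. The 754-read cluster in Zc3h7a had 57 bases in an exon of Gm23935, annotated as a miRNA. For 11 of the 41 clusters the set held more than 90 clusters. The Kpna1 cluster also shared words with transcripts of Lars2 and Gm15564. The Kpna1, Mphosph8 and Vwa3a sequences resemble the complement of conserved stretches of large-subunit ribosomal RNA, as known from textbooks; no sequence of that RNA was used here and the match was not tested. Whether the reads at these loci came from the host gene or from another copy of the sequence was not tested, since reads were assigned to places before the list was made.

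The clusters were split almost evenly between the strands of the host gene. Of 637, 324 lay on the strand of the gene, 50.9% (Wilson 95% interval 46.99 to 54.73%; two-sided exact binomial test against equal strands, adjusted p = 0.69 over 4 tests). The 324 had a median of 13 reads and the 313 on the opposite strand a median of 12, with the same quartiles of 9 and 17. In genes of 200 kb or more, the same rule gave 544 clusters, of which 274 (50.4%) did so (adjusted p = 0.92 by a two-sided Fisher exact test, over 7 tests between classes). Of the 313 on the opposite strand, 13 lay on the strand of some other annotated gene, 3 of them protein-coding, so 337 of the 637 (52.9%) followed the strand of any gene. Allowing any gene can only raise this share, and its background was not counted, so it cannot be read as a strand preference. Counted by reads, 62.4% lay on the gene strand, and without the 41 clusters that share a word the share was 51.15%.

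By distance to an exon, the clusters showed no difference from the intronic sequence available that passed. The bases counted include repeated sequence, while the sequence of each cluster had to be listed 1 time. The distance from midpoint to the nearest exon had a median of 1355 bases, quartiles of 432 and 3905, and a range of 1 to 64090. In all, 272 of 637 (42.7%, 38.9 to 46.6%) lay within 1 kb of an exon, where 40.3% of the intronic bases of these genes lie (two-sided exact binomial test, adjusted p = 0.42). The 5 nearest were in Tnc, an extracellular matrix protein (1 base, 13 reads), Tm9sf4 (2 bases, 22 reads), Kpna1 (3 bases, 1982 reads), Thoc2, a subunit of the mRNA export complex THO (4 bases, 19 reads), and Cenpe, a kinetochore motor (5 bases, 18 reads). The 5 farthest were in 6030498E09Rik (64090 bases, 8 reads), Kcnj3, a potassium channel (62684 bases, 7 reads), Zcchc7 (50274 bases, 17 reads), Lrfn2 (48935 bases, 10 reads) and Rtn1, a reticulon (46782 bases, 16 reads). These 5 farthest clusters had 7 to 17 reads, beside a median of 13 in all 637. Reads were not compared with exon distance across all clusters.

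The first intron held 163 clusters, 25.6% (22.4 to 29.1%), against 29.4% of the intronic bases. This difference did not pass after adjustment (two-sided exact binomial test, p = 0.037, adjusted p = 0.15). Among the 285 clusters with at least 14 reads, the median of the whole list, the share was 21.75% and did pass (exact binomial test, adjusted p = 0.017). By position along the host gene, cut into 3 parts of equal length, 212 clusters lay in the 5′ part, 239 in the middle and 186 in the 3′ part. The intronic bases of each part were not counted, so these numbers have no background share.

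**Figure D2:**
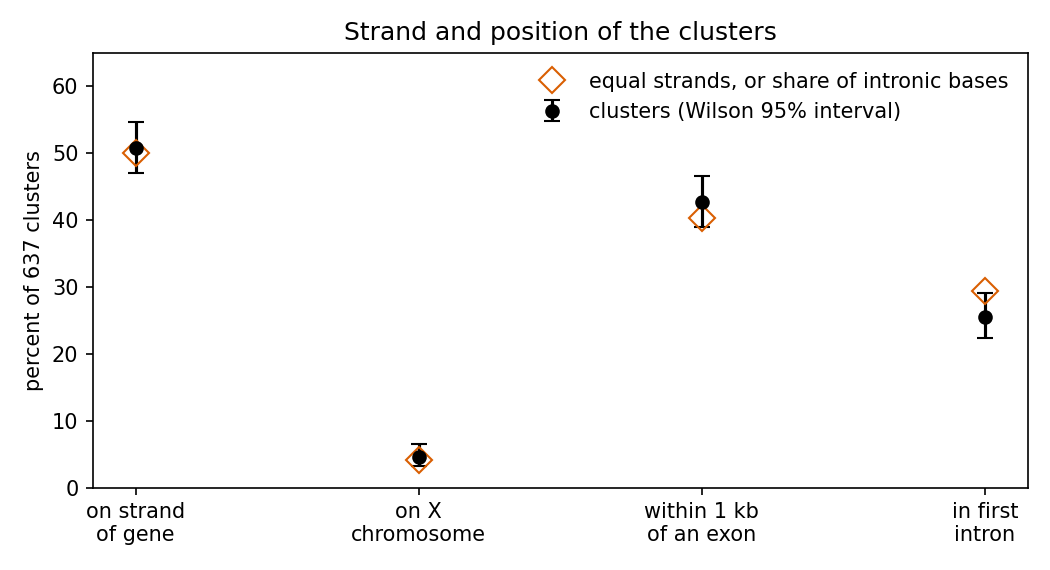
Percent of the 637 clusters on the strand of the gene, on the X chromosome, within 1 kb of an exon and in the first intron, as points with Wilson 95% intervals, beside 50% for the strand and the share of intronic bases for the other 3 as open diamonds. The diamond lies inside the interval for strand (50.9%), X (4.55%) and exon distance (42.7%) and just above it for the first intron (25.6% against 29.4%).

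A few clusters crossed the edge of an exon. Of 27 that were partly exonic, 25 touched an exon of the host itself, by 1 to 42 bases, 12 on the strand of the gene and 13 on the opposite strand. On the gene strand, the Pik3r1 sequence above ran from the end of the intron, through its final AG, directly into the exon. A cluster of 70 reads on the opposite strand, not among those described here, overlapped this Pik3r1 cluster of 41 reads. Sis, the intestinal sucrase-isomaltase (37 reads), Tnks, tankyrase (29 reads), Map4, a microtubule-associated protein (28 reads), and Pcm1, a centriolar satellite protein (25 reads), also crossed an edge on the gene strand. On the opposite strand the highest were Lamc1 with 49 reads and Tm9sf4 with 22. Sis, which is known from the gut, was named here after its values were seen, as were Tnks, Map4 and Pcm1. In 26 of the 597 host genes another cluster of the list had its midpoint in an annotated exon, of the host or of another gene. The share among all eligible genes was not counted, so this number cannot be read as high or low.

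The sequence feature that most clusters shared was their first 2 bases. Of 637 clusters, 575 began with AC, 90.3% (87.7 to 92.3%), while AC made up 4.73% of adjacent base pairs inside them. The share was 92.8% in the 596 clusters without a shared word and 53.7% in the 41 with one. On the gene strand it was 90.7% and on the opposite strand 89.8%. ACT opened 323 clusters (50.7%), ACA 137 (21.5%), ACC 104 (16.3%) and ACG 11 (1.73%). T followed the first AC in 56.2% and an inner AC in 34.5%. The last base was T in 351 clusters (55.1%), against 31.6% T in the whole sequence. Clusters in genes of 200 kb or more ended with T in 55.3% and opened with ACT in 47.6%. Single-copy clusters between genes did so in 54.7% and 48.0%. The 62 clusters that began otherwise opened most often with AT (16), AA (15) or CA (10).

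Genes of 200 kb or more had AC starts in 490 of 544 clusters, or 90.1% (adjusted p = 0.92, two-sided Fisher exact test). Single-copy clusters between genes had 1216 of 1418, or 85.8%, and the difference of 4.51 percentage points passed (exact test as before, adjusted p = 0.03). With clusters that share a word left out of both classes the difference was -1.34 percentage points and did not pass (Fisher exact test, adjusted p = 0.55).

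The word GTAC was rare inside the clusters. It was searched as G, T, A, C in that order, which reads the same on both strands. It occurred in 8 of 637 clusters (1.26%), 8 times in all, where the base shares alone would give 191. The other classes were alike in this. GTAC was in 2 of 544 clusters in genes of 200 kb or more, where base shares would give 160 occurrences. Between genes it was in 4 of 1418, where they would give 421. Other palindromes of 4 bases were frequent: AGCT occurred 272 times, CATG 268, TGCA 236, CTAG 187 and GATC 126. In windows of 85 bases from 27025 RefSeq promoters (GRCm38.p6), GTAC was in 13.3% and AGCT in 33.6%, while AGCT was in 35.2% of the clusters. The Lamc1 sequence above holds 1 of the 8, starting at its base 30.

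The 2 bases before a cluster could be read from an overlapping transcript or promoter for 14 clusters. Of the 12 that began with AC, 11 had GT before it (91.7%, Wilson 95% interval 64.6 to 98.5%), so that GTAC spanned the start. The exception was Thoc2, with TT. A further 4 read from another cluster are not counted: in Sfi1 and Usp6nl the neighbour's own AC fixes the GT, and Il31ra had CT. Neither of the 2 that began otherwise had GT, Canx having AT and Sis having GA. As background, GTAC is the site that the restriction enzyme RsaI cuts between T and A. Whether a cut at this site gave the starts was not tested, and the labels name no such step.

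Some clusters began at the same point on opposite strands. In the whole list 38 pairs had the first base of a plus-strand cluster next to the first base of a minus-strand one, all 38 with AC on both, and 3 pairs had any other offset of up to 5 bases. Among the 637 such pairs occurred at Sfi1, whose product binds centrin, and at Usp6nl, a GTPase-activating protein. Both are shown with the 20 bases around the join on the plus strand, where capitals mark GTAC. The plus-strand Sfi1 cluster is not among the 637.
Sfi1, chr11:3157169-3157253, minus strand, 26 reads: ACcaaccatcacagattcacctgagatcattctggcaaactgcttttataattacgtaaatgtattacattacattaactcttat
Sfi1, chr11:3157254-3157338, plus strand, 66 reads: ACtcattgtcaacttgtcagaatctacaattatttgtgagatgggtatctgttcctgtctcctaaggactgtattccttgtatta
Sfi1 join, chr11:3157244-3157263: gatggttgGTACtcattgtc
Usp6nl, chr2:6405478-6405561, minus strand, 20 reads: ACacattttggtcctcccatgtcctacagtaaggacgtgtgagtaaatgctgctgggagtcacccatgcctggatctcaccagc
Usp6nl, chr2:6405562-6405645, plus strand, 6 reads: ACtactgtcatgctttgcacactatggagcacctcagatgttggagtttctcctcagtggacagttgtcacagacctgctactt
Usp6nl join, chr2:6405552-6405571: caaaatgtGTACtactgtca

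Other pairs faced each other across a gap. In 9 pairs with at least 1 of the 637 clusters, a plus-strand and a minus-strand cluster pointed towards each other without overlap, with 195 to 373 bases from first base to first base and a median of 231. In 7 of the 9 both began with AC, at 196 to 325 bases. At Ccdc102a the clusters had 14 reads each and spanned 196 bases. Morc2a, an ATPase that works in gene silencing, had 30 and 13 reads over 231 bases, and A630089N07Rik had 24 and 15 over 218. Slc26a5, the hair cell motor protein prestin, had 8 and 14 reads over 284 bases. The Ccdc102a pair, the closest of the 7, is shown as an example. Whether the clusters of a pair came from the same fragment was not tested.
Ccdc102a, chr8:94907341-94907426, plus strand: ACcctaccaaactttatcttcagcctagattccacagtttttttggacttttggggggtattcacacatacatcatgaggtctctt
Ccdc102a, chr8:94907452-94907536, minus strand: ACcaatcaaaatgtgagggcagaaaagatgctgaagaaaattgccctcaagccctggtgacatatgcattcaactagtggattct

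**Figure D3:**
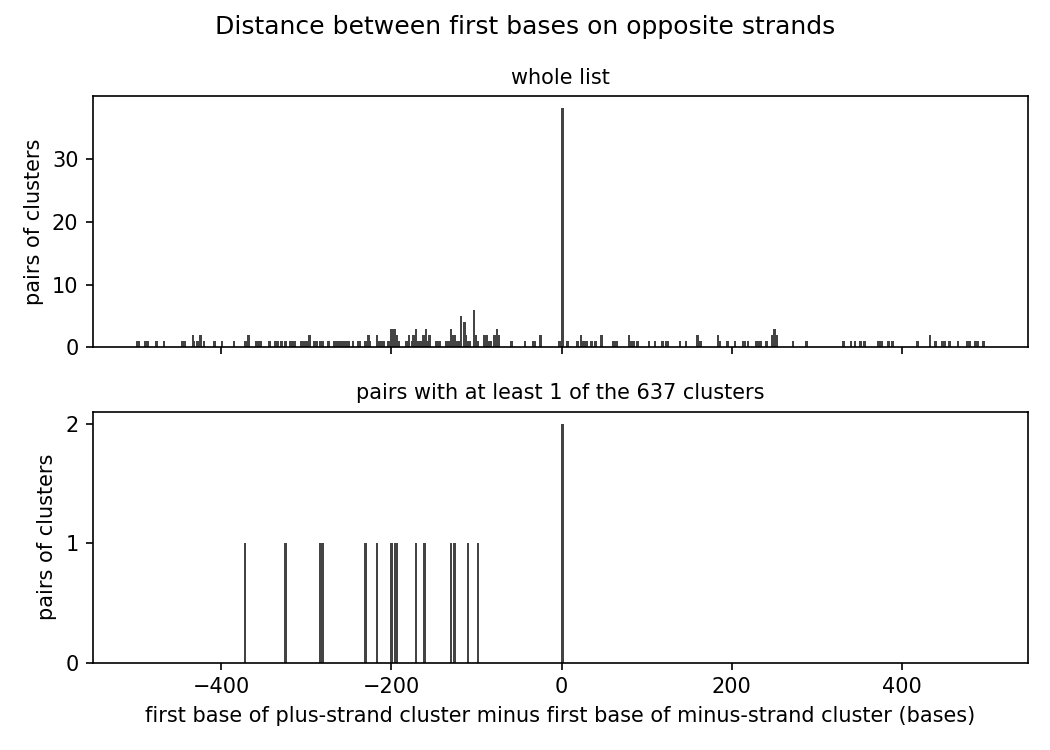
Number of pairs of clusters on opposite strands within 500 bases, by the first base of the plus-strand cluster minus that of the minus-strand cluster, in the whole list (top) and for the 17 pairs with at least 1 of the 637 clusters (bottom). Negative values are pairs that face each other; the 38 pairs at 1 base stand out in the whole list.

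Most clusters stood alone. The next cluster of the list was a median of 196900 bases away, 454 clusters (71.3%) had none within 100 kb, and 39 (6.12%) had one within 1 kb. Of the 597 genes, 559 held 1 cluster, 36 held 2 and 2 held 3. The genes with 3 were Zc3h7a, with 1389 reads, and Usp6nl, with 40. Among the genes with 2 and the most reads were Tmem56, Il31ra and Mphosph8, described above, Zc3h14 (65 reads), Morc2a (43) and Ppip5k2, an inositol phosphate kinase (41). Fubp3, a single-stranded nucleic acid binding protein, had 40, on the strand opposite to the gene.

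Longer genes held a cluster more often, roughly as their introns grew. Genes under 25 kb held 79 clusters, and 0.703% of those genes had one. The share of genes with a cluster was 3.59% at 25 to 50 kb, 8.01% at 50 to 100 kb, 13.1% at 100 to 200 kb and 37.7% at 200 kb or more. Per Mb of intron there were 0.989 clusters (exact Poisson 95% interval 0.783 to 1.23), 1.35 (1.14 to 1.58), 1.37 (1.19 to 1.57), 1.12 (0.973 to 1.29) and 1.32 (1.21 to 1.44) in the same order. All genes under 200 kb had 1.22 clusters per Mb (1.13 to 1.32), 0.922 times the density in longer genes (two-sided exact binomial test on the 1181 clusters, p = 0.17). With at least 14 reads the ratio was 0.819 (exact test, p = 0.019), and with 1 cluster per gene, which removes more clusters from longer genes, it turned to 1.27 (exact test, p = 0.00032). At the limit of 200 kb, the last genes inside were Crybg1 (198218 bases, 13 reads), Glra2, a glycine receptor subunit (198377 bases, 9 reads), and Atp9b (199920 bases, 9 reads). The first outside were Pcbp3 (200031 bases, 5 reads), Glis1 (200471 bases, 6 reads) and Antxr1 (201969 bases, 9 reads).

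**Figure D4:**
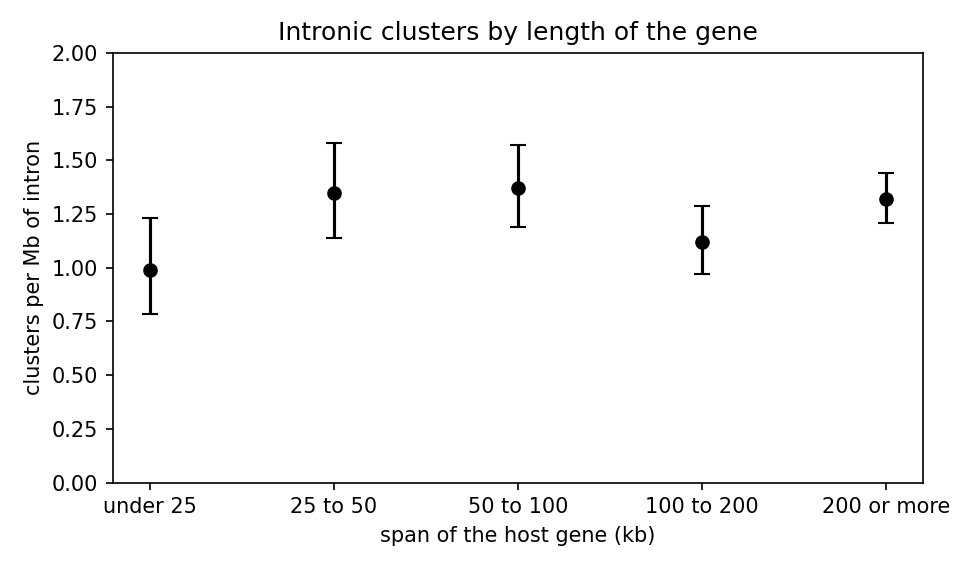
Clusters per Mb of intron by span of the host gene, with exact Poisson 95% intervals; the last point is the genes of 200 kb or more, which are not among the 637. Values run from 0.989 under 25 kb to 1.37 at 50 to 100 kb.

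Few of the clusters were deep. Above 65 reads were 12 of 637 (1.88%), 17 of 544 in longer genes (3.12%) and 69 of 1418 between genes (4.87%). The mean was 24.2, 29.3 and 56.0 reads, and neither was tested. Clusters that share a word held 45.5%, 57.7% and 78.7% of the reads of these classes, in the same order. Clusters without a shared word made up 93.6%, 89.0% and 85.2% of each class. The differences in mean therefore cannot be read as a trait of the introns apart from shared words. At least 14 reads were counted in 285 of 637 (44.7%), in 274 of 544 in longer genes (50.4%; adjusted p = 0.13, two-sided Fisher exact test) and in 671 of 1418 between genes (47.3%; adjusted p = 0.41 by the same test). With 1 cluster per gene, the one with the most reads, the first of these differences was -12.3 percentage points and passed (Fisher exact test, adjusted p = 0.0015). That choice itself raises the counts more in longer genes, where 544 clusters lay in 371 genes, against 637 in 597. With clusters that share a word left out, the share with at least 14 reads differed little between classes. The difference was -2.70 percentage points from longer genes and -0.331 from intergenic clusters (Fisher exact test, adjusted p = 0.55 and 0.92).

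The X chromosome, on which Smchd1 is known to act, held 29 clusters in 28 genes, 4.55% (3.19 to 6.46%), and has 4.11% of the intronic bases of these genes (two-sided exact binomial test, adjusted p = 0.69). Of the 29, 14 lay on the gene strand and 26 began with AC, and they had 5 to 32 reads with a median of 12. The 10 with the most reads included those in Huwe1, a ubiquitin ligase (32 reads), Gucy2f, a guanylate cyclase of photoreceptors (29), Maob, a monoamine oxidase (25), Phf6 (20), Thoc2 (19), Tktl1 (18), Plac1 (15), Tbl1x (14) and Klhl15 (14). The X share in longer genes was 17 of 544, or 3.13% (adjusted p = 0.4, two-sided Fisher exact test). Between genes it was 107 of 1418, or 7.55%, and this difference passed (Fisher exact test, adjusted p = 0.043), though not without clusters that share a word (adjusted p = 0.21) nor in 2 further alternatives given in the closing section. The X share of the available sequence is not given for either of these classes. Neither difference can therefore be read as a preference for or against X.

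**Figure D5:**
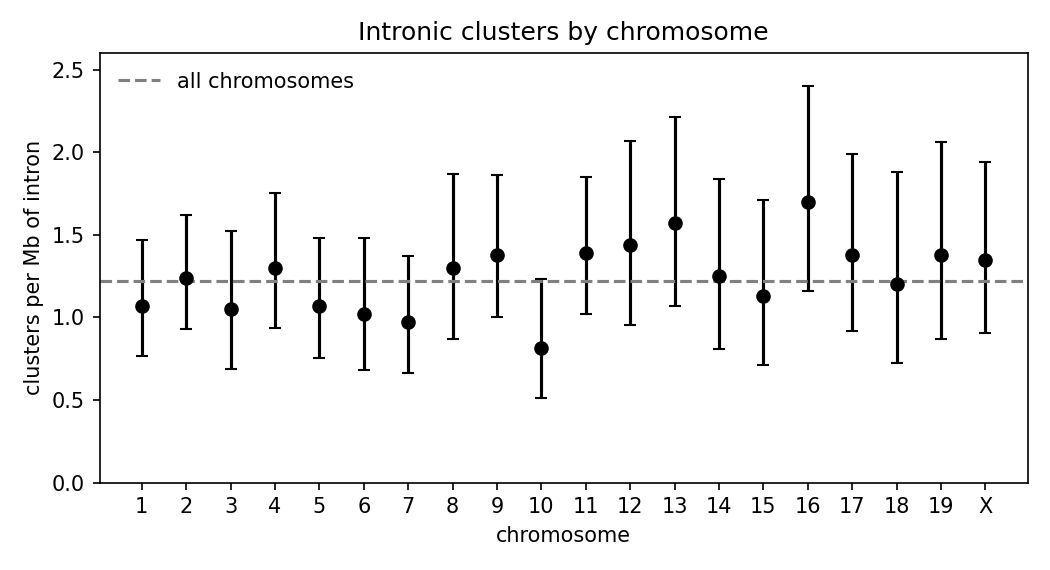
Clusters per Mb of intron of protein-coding genes under 200 kb on each chromosome, with exact Poisson 95% intervals; the dashed line is the value over all chromosomes, 1.22. Values run from 0.812 on chromosome 10 to 1.70 on chromosome 16, and the interval of each of the 20 chromosomes holds the line.

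Genes that mark cell types held few of the clusters. None lay in a gene of the lists for neural stem cells (17 eligible genes), neurons (16), astrocytes and oligodendrocytes (18), blood and microglia (16), hepatocytes and gut (20), muscle and heart (15) or germ cells (17), each list having at most 0.165% of the intronic bases. Of 13 fibroblast and endothelial genes, Col3a1, a fibrillar collagen, held 2 clusters of 7 and 26 reads. This list had 0.314% of the clusters against 0.135% of the intronic bases, without a test. The neural stem cell label therefore could not be checked against its markers here. In such bulk samples fewer cells of a type and less RNA per cell cannot be told apart.

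Among 34 genes of X inactivation and Smchd1 partners, Smc2, a condensin subunit, and Spen, which is recruited to Xist RNA, held 1 cluster each, of 14 and 23 reads, both on the strand of the gene. Of 30 imprinted genes, Nap1l4, a histone chaperone, held 1 of 7 reads on the opposite strand. These 2 lists had 0.314% and 0.157% of the clusters and 0.241% of the intronic bases each.

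Each gene family held between 0 and 2.67% of the clusters, given here beside its share of intronic bases and without a test. Solute carriers held 17 clusters in 16 of 356 genes, 2.67% of the clusters against 2.31% of the bases, with 5 to 23 reads. They were Slc15a4, Slc16a7, Slc22a14, Slc22a30, Slc25a46, Slc26a5, Slc28a3, Slc2a9, Slc34a1, Slc36a2, Slc36a4, Slc39a10, Slc41a3, Slc6a9, Slc9a2 and Slc9a4. Zfp genes held 8 (1.26% against 1.42%), in Zfp277, Zfp292, Zfp385c, Zfp59, Zfp597, Zfp609, Zfp81 and Zfp827. Olfactory receptors, which are expressed in the nose, held 8 in 1004 genes (1.26% against 0.741%), with 7 to 25 reads. They were in Olfr110, Olfr1308, Olfr131, Olfr1472, Olfr344, Olfr410, Olfr685 and Olfr721-ps1. Vomeronasal receptors held 4 (0.628% against 0.64%), in Vmn2r102, Vmn2r4 and Vmn2r94. Ion channel subunits held 8 in 106 genes (1.26% against 0.886%), in Cacna1b, Cacng5, Kcnc2, Kcnj3, Scn2b, Scn3a, Scn7a and Scn9a. On the gene strand were 12 of 17 solute carrier, 4 of 8 Zfp and 6 of 8 ion channel clusters. For olfactory and vomeronasal receptors the counts were 1 of 8 and 1 of 4. Strand was not tested by family. Cytochrome P450, keratin and serpin genes held none, with 0.457%, 0.0542% and 0.198% of the bases.

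Among families of the cell's machinery, Rab, Snx and Vps genes held 6 (0.942% against 0.94%), in Rab18, Rab30, Rab37, Rab6b, Snx19 and Vps41. The MAP kinase cascade held 5 (0.785% against 0.424%), in Map2k1, Map4k3, Map4k4 and Map4k5. The Gpr and Adgr genes held 5 (0.785% against 0.59%), among them Gpr161, Gpr176, Gpr37 and Gprc5a. Cadherins and protocadherins held 3 (0.471% against 0.3%), in Cdh10, Cdh22 and Pcdh19.

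For 4 families the start of the symbol also took in unrelated genes, so a narrower match made after these were seen stands beside the first. Col symbols held 6 clusters (0.942% of the clusters against 0.612% of the intronic bases). Of these, 5 (0.785% against 0.523%) lay in the collagens Col13a1, Col3a1, Col5a2 and Col6a6 and the other in Col4a3bp. Kinesin, dynein and myosin symbols held 8 (1.26% against 0.96%), of which 6 stayed (0.942% against 0.809%). Among the 6 were Kif28, Kif2a, Kif3a, Myo1h and Myo5a, without Myocd and Myom1. Usp and Fbx symbols held 4 (0.628% against 0.855%), of which 1 stayed (0.157% against 0.826%), in Usp32, without Usp6nl. Clec, Klr and Cd symbols held 7 (1.1% against 1.39%), of which 2 stayed (0.314% against 0.571%). The 2 were in Cd28 and Cd47, without Cdc14a, Cdc42ep4, Cdc42se2, Cdh10 and Cdh22.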

How the data were processed

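The submitters' processing notes name TopHat2 2.1.0, bcl2fastq and build mm10. The authors deposited 1 raw read count for each cluster, pooled and without normalization, and 0 columns per library. The caller, its thresholds and its input libraries were not given in the sources used. The planned group comparison could not be run.

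Positions were used as 1-based with GENCODE vM21 on GRCm38. For each gene, the intronic bases for which it is the host were counted, with those within 1 kb of an exon and those in the first intron of its transcript with the largest span. Clusters were linked when they shared a 30-base word on either strand. Shares have Wilson 95% intervals and densities exact Poisson intervals. Shares were tested against equal strands or intronic bases (exact binomial, 4 tests) and between classes (Fisher exact, 7 tests), two-sided, with Benjamini-Hochberg adjustment at 0.05. The annotation of clusters, the counts of intronic bases and the binomial test were checked on simulated data, and the other steps were not. Python 3.11.15, numpy 2.4.6, pandas 2.3.3 and SciPy 1.17.1 were used.

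Named were the 15 clusters with the most reads, the 10 genes with the most clusters, list members, the 10 X-linked clusters with the most reads, the 5 nearest to and 5 farthest from an exon, and 3 genes on each side of the limit. Sequences were printed for the 8 clusters with the most reads without a shared word and for adjacent pairs; those of a facing pair and of 3 clusters with shared words were chosen after their values were seen. The values of some genes that these rules name are not reported here. Members and lists were chosen with earlier results of these data known. The density comparison, span classes, facing pairs, 4-base words, preceding bases and exon edges were added after the data were seen, and 7 alternatives were planned and 1 added.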

Additional observations from a re-analysis of the deposited data

How the results depend on the processing

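No paired analysis was possible because each cluster has a single pooled count, and for the same reason no replicate could be left out. Across 108 values under the alternatives, 87 kept their direction and their side of the threshold or, for the number of clusters, stayed within 1.5 times. Within that limit it fell to 432 in genes under 100 kb, and the median reads were 18 with at least 14 reads, by construction. The number of clusters was 331 with a host on the same strand required and 285 with at least 14 reads, by construction. Without shared words, the share beginning with AC was 92.8%, its difference from longer genes -1.43 (exact test, adjusted p = 0.55) and from intergenic clusters -1.34 percentage points (exact test, adjusted p = 0.55). With a host on the same strand these 2 differences were -1.03 and 5.18 points, and in genes under 100 kb -0.572 and 4.06 points (exact test, adjusted p = 0.081 and 0.1 for the intergenic ones). The X share was 2.78% in genes under 100 kb and 3.51% with at least 14 reads, each below its share of intronic bases (exact test, adjusted p = 0.5 and 0.91). Its difference from longer genes was -1.76 points in genes under 100 kb. Its difference from intergenic clusters was -2.67 points without shared words, -3.01 with a host on the same strand and -2.96 with no exonic base, none of which passed (exact test, adjusted p = 0.21, 0.13 and 0.052). With at least 14 reads, the strand difference from longer genes was -2.39 points, the first-intron share 21.75% and the density ratio 0.819 (exact binomial test, p = 0.019). The density ratio was 1.01 in genes under 100 kb and 1.27 with 1 cluster per gene (exact binomial test, p = 0.00032), where longer genes lose more clusters; the read difference there was -12.3 points. The cause of the other changes was not tested.

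Depth per library is not known. Without a genome or repeat annotation, copies outside the list were not counted. With 30-base words shared with transcripts of other genes left out, an alternative chosen after seeing the data, the 7 shares and counts kept their direction and side of the threshold.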
